A study of Mus musculus with 18 samples.

Results

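The genes of the endoplasmic reticulum (ER) stress response were followed here in mouse white fat after 24 weeks of a rotating light schedule. The group comprised 10 genes given by name: the ER chaperones and folding factors Hspa5, Hsp90b1, Calr, Pdia4 and Dnajb9, the transcription factors Atf4, Ddit3 and Xbp1, the pseudokinase Trib3, and Herpud1, a membrane protein of ER-associated degradation. All 10 were matched by symbol among the 24091 genes of the epididymal table and the 51826 identifiers of the inguinal table, and all 10 passed the filters on low values. The study sequenced mRNA from epididymal white adipose tissue (eWAT, a visceral depot beside the testis) and inguinal white adipose tissue (iWAT, a subcutaneous depot) of C57BL/6 mice. The 6 groups of 3 libraries each were shiftwork eWAT at ZT3, control eWAT at ZT3, shiftwork eWAT at ZT12, control eWAT at ZT12, shiftwork iWAT at ZT3 and control iWAT at ZT3, where ZT is the number of hours after lights-on. Control mice were kept under 12 h of light and 12 h of darkness throughout, and shiftwork mice had that cycle on 4 days of the week and its reverse on the other 3 days. The labels used here give no age or genetic change, and do not say on which day of the weekly schedule tissue was taken, or whether each library came from a separate mouse, so p-values measure the spread between libraries, which may be technical.

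The ER folds secreted and membrane proteins. When unfolded proteins collect there, sensors in its membrane start the unfolded protein response. The kinase PERK slows translation while favouring that of ATF4, which turns on Ddit3 (the pro-apoptotic factor CHOP), Trib3 and genes of amino acid supply. IRE1 splices the Xbp1 mRNA into the form that encodes an active factor for secretory and degradation genes, and ATF6 moves to the nucleus and turns on chaperones such as Hspa5 (BiP). Adipocytes secrete adipokines and build lipid at the ER, and plasma cells, fibroblasts and macrophages in fat are also secretory. Counts per gene show neither splicing of Xbp1 nor translation of Atf4.

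Promoters are shown for the 4 members in which a search for known ER stress elements found a match. The other members, the chaperone genes Pdia4 and Dnajb9 among them, had no match. Each sequence is the 250 bases upstream of the RefSeq start in build GRCm38.p6, on the gene's strand, and all 10 members had a window. The windows are chr2:34771840-34772089 (plus strand) for Hspa5, chr10:86705445-86705694 (minus) for Hsp90b1, chr8:84846932-84847181 (minus) for Calr and chr8:94386179-94386428 (plus) for Herpud1. Capitals mark the fixed letters of a match, and the capitals nearest to the start of the gene lie to the right.
Hspa5: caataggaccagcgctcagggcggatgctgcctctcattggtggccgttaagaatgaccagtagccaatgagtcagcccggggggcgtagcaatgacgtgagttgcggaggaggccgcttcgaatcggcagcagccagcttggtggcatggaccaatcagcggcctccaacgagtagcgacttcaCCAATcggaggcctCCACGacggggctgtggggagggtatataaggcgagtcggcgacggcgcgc
Hsp90b1: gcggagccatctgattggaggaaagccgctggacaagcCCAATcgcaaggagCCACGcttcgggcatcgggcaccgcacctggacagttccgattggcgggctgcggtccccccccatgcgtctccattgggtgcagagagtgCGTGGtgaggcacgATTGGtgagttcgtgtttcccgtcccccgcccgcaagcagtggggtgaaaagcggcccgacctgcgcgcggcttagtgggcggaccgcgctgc
Calr: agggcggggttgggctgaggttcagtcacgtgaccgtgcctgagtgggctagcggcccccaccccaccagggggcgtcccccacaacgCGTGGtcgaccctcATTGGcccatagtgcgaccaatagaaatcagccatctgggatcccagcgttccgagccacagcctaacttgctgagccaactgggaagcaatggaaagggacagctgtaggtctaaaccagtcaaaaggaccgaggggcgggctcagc
Herpud1: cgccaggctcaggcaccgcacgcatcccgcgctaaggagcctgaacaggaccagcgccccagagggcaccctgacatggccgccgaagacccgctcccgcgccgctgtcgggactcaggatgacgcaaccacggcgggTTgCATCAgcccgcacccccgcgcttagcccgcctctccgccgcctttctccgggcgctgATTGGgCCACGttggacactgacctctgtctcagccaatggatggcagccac

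The ER stress response element ERSE was searched on both strands as CCAAT and CCACG with any 9 bases between them. It was found 1 time upstream of Hspa5, from 65 to 47 bases before the start, 1 time upstream of Calr in the reverse direction, and 2 times upstream of Hsp90b1, once in each direction. Of 32851 RefSeq promoter windows of mouse, 37 (0.113%) held it. The related ERSE-II, searched as ATTGG, any 1 base and then CCACG, was found from 52 to 42 bases before the start of Herpud1, and 10 windows (0.0304%) held it. Herpud1 also held the C/EBP-ATF element, searched as TGATGNAA, on the minus strand from 112 to 105 bases before its start, a motif present in 1134 windows (3.45%). The core of the unfolded protein response element, TGACGTGG, was found in none of the 10 members and in 185 windows (0.563%). The matches upstream of the members did not overlap each other. For Herpud1 the RefSeq start lies upstream of the gene start at position 94386500 of chromosome 8 in the authors' table. A match describes letters in these windows, not occupancy, and the absence of a match says only that these letters are not there.

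Values in eWAT are reads per gene scaled by TMM library size (CPM), and values in iWAT are the authors' deposited normalized reads. Both tables were normalized separately, so levels were not tested between depots. Assigned reads ran from 20352008 to 72276733 per eWAT library and from 28544338 to 55639501 per iWAT library. Adipocyte markers were present in every library, all 10 of 10 above 1. Transcripts of other tissues stood out in some: ZT3 control replicates 1 and 3 of eWAT had 11374 and 11992 CPM summed over 10 vas deferens and epididymis markers (led by Akr1b7), ZT3 shiftwork replicate 3 of eWAT had 5836 CPM of spermatid markers, and shiftwork replicate 1 of iWAT had 2122810 normalized reads of skeletal muscle markers. In control replicates 1 and 3 only 2 and 3 of the 10 vas deferens and epididymis markers were above 1 CPM, and Akr1b7 alone gave 9039 and 9325 CPM. ZT12 shiftwork replicate 2 of eWAT had 184 CPM summed over 10 intestine markers, 8 of them above 1 CPM, with Krt20 at 55.8 CPM. The other ZT12 eWAT libraries had 8.30 to 19.8 CPM of these markers. In iWAT, control replicates 1 and 2 carried 61177 and 94961 normalized reads of B and plasma cell markers, against 1578 in control replicate 3. In bulk tissue, fewer cells of a type and less RNA per cell cannot be told apart. Sample names of the iWAT controls carry the numbers 14, 15 and 16 that also stand in the names of the ZT12 eWAT controls. The number 45 stands in the names of ZT12 shiftwork replicate 1 of eWAT and shiftwork replicate 3 of iWAT. Those libraries were also the highest for Hspa5, Hsp90b1, Calr and Pdia4 among the ZT12 eWAT libraries and among the iWAT libraries. The labels do not explain the numbers or say whether libraries that share one came from the same mouse. The ZT3 label was kept for iWAT.

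Per length of transcript, the 10 genes kept widely different levels in fat. In eWAT the highest was Calr, the calcium-binding lectin chaperone, with group means from 187 to 218 FPKM; the iWAT table also lists a Calr pseudogene, and the counting could split reads between such copies. Hspa5 followed with group means from 137 to 174 FPKM and Hsp90b1, the ER member of the HSP90 family, with 137 to 158 FPKM; their ranges over libraries overlapped. Xbp1 had group means of 56.6 to 102 FPKM, Atf4 35.7 to 59.9 FPKM and Pdia4, a protein disulfide isomerase, 34.3 to 37.7 FPKM. Herpud1 had 27.9 to 35.9 FPKM, Dnajb9, an ER co-chaperone of BiP, 19.0 to 21.99 FPKM, and Ddit3 15.4 to 23.3 FPKM. Trib3 was lowest, at 2.18 to 2.86 FPKM. In iWAT the order also began with Calr, at 267 ± 157 RPKM in shiftwork and 182 ± 45 RPKM in control libraries, and ended with Trib3, at 4.54 ± 0.50 and 5.13 ± 0.88 RPKM (SD, n = 3 each). Over the 12 eWAT libraries the highest CPM of a gene was 4.12 times its lowest for Xbp1, 2.71 times for Trib3, 2.52 times for Herpud1, 2.29 times for Atf4, 2.22 times for Ddit3 and 1.47 to 1.75 times for the 5 chaperone genes. Over the 6 iWAT libraries this ratio of normalized reads was largest for Calr, Pdia4, Hspa5 and Hsp90b1, at 2.85 to 3.24, followed by Xbp1 at 2.20, and 1.27 to 1.66 for the other 5. The transcription factor genes thus varied more than the chaperone genes over the 12 eWAT libraries. Among the ZT12 libraries alone this order did not hold. There Xbp1 ran from 183 to 193 CPM, Atf4 from 103 to 123 CPM and Ddit3 from 16.9 to 23.7 CPM. Hspa5 ran from 445 to 615 CPM, Calr from 465 to 659 CPM and Dnajb9 from 46.8 to 55.9 CPM. The high iWAT ratios came from shiftwork replicate 3: without it they were 1.43 for Calr, 1.39 for Pdia4, 1.32 for Hspa5, 1.31 for Hsp90b1 and 1.21 for Xbp1, against 1.52 for Atf4 and 1.5 for Ddit3.

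No member passed an adjusted p under 0.05 in any of the 7 comparisons made. At ZT3 in eWAT the lowest p-values belonged to the transcription factors: Atf4, Ddit3 and Xbp1 were lower in shiftwork libraries, and so was the mean of Hspa5, while the other 4 chaperone genes had estimates nearer to 0. The edgeR quasi-likelihood test called 0% of 15141 genes in that comparison after Benjamini-Hochberg adjustment, and 2847 genes (18.8%) had an unadjusted p under 0.05. So did 3 of the 10 members, all lower under shiftwork, beside 6.05% of all genes that were lower with such a p. DESeq2 called 629 genes (4.15%) and 1 member, Atf4. Of the members, 5 had a positive and 5 a negative log2 fold change, where 56.9% of all genes were positive, and the median was -0.01 beside 0.06 over all genes tested. Without overlap between the groups, 2 members were lower and none higher, where 4.33% of all genes were lower and 7.64% higher in that way.

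Of the transcription factor genes, Atf4 lies at chr15:80255184-80257545, Ddit3 at chr10:127290793-127296288 and Xbp1 at chr11:5520641-5525993, all on the plus strand of GRCm38. Atf4, the central transcription factor of the PERK arm, had 78.1, 103 and 68.2 CPM in shiftwork replicates 1 to 3 at ZT3, against 132, 130 and 156 CPM in control replicates 1 to 3. Every shiftwork library lay below every control library. The log2 fold change was -0.75 ± 0.14 (SE, n = 3 per group; 95% interval -1.07 to -0.43), with an edgeR adjusted p of 0.170. Its unadjusted p ranked 27 among the 15141 genes. DESeq2 gave -0.76 and an adjusted p of 2.93e-05. Leaving out control replicate 2 also brought Atf4 past the threshold, at -0.82 with an edgeR adjusted p of 0.0278, a setting in which 403 genes were called, and over all eWAT alternatives the log2 fold change of Atf4 lay between -0.94 and -0.54 and the adjusted p between 2.93e-05 and 0.649.

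Ddit3, which encodes CHOP, had 14.3, 22.4 and 20.05 CPM in shiftwork libraries at ZT3, against 23.5, 26.7 and 31.8 CPM in controls. The groups did not overlap, but shiftwork replicate 2 and control replicate 1 lay close together. Its log2 fold change was -0.53 ± 0.18 (edgeR adjusted p = 0.216).

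Xbp1, the transcript spliced by IRE1, had 203, 211 and 105 CPM in shiftwork libraries, against 198, 305 and 433 CPM in controls. Here the groups overlapped: shiftwork replicate 3 was the lowest and control replicate 3 the highest of all 12 eWAT libraries, and control replicate 1 lay among the shiftwork values. The log2 fold change was -0.85 ± 0.30 (edgeR adjusted p = 0.217), and its interval ran from -1.51 to -0.19. Over the alternatives Xbp1 lay between -1.09 and -0.56 and Ddit3 between -0.67 and -0.36.

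Hspa5, the gene of the chaperone BiP, had 431, 449 and 540 CPM in shiftwork libraries at ZT3, against 455, 643 and 753 CPM in controls. The 2 groups overlapped, with a log2 fold change of -0.38 ± 0.19 (edgeR adjusted p = 0.312, interval -0.82 to 0.05). The other chaperones stayed closer to 0: Hsp90b1 had a log2 fold change of 0.06 (interval -0.35 to 0.47), Calr -0.03 (-0.42 to 0.37), Pdia4 0.01 (-0.32 to 0.34) and Dnajb9 0.17 (-0.21 to 0.56). Each of these 4 intervals excluded a difference as large as the Atf4 estimate. Herpud1 and Trib3 had positive estimates, 0.33 (-0.23 to 0.89) and 0.45 (-0.40 to 1.30). Herpud1 had 69.3, 69.0 and 125 CPM in shiftwork libraries, against 80.5, 49.5 and 78.8 CPM in controls, so shiftwork replicate 3 alone set the higher mean. Trib3, a target of ATF4 and CHOP that binds the kinase AKT, had 8.55, 10.3 and 4.38 CPM in shiftwork libraries, against 8.14, 3.80 and 4.98 CPM in controls. The Trib3 groups overlapped over most of their range.

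Several markers moved with the ZT3 groups. B and plasma cell markers (8 in the table, none at 0) summed to 14.6 to 46.04 CPM in shiftwork libraries and 70.5 to 281 CPM in controls, without overlap and with the highest sum in control replicate 3, the library highest in Xbp1, Atf4, Ddit3, Hspa5 and Hsp90b1. Jchain led every one of these sums, with 7.12, 8.80 and 10.2 CPM in shiftwork replicates 1 to 3 and 36.9, 45.3 and 204 CPM in control replicates 1 to 3. Above 1 CPM stood 3 to 7 of the 8 markers in shiftwork libraries and 7 in controls. The separation of the sums was not examined without Jchain. Skeletal muscle markers (10, at most 2 at 0) summed to 17.6 to 45.6 CPM in shiftwork libraries and 58.05 to 261 CPM in controls, also without overlap. Of these markers, 2 to 3 were above 1 CPM in shiftwork libraries and 2 to 5 in controls. Acta1 led the sums of control replicates 1 and 3, with 123 and 113 CPM, and Myl1 led the other sums. Vas deferens and epididymis markers summed to 2.43 to 103 CPM and 15 to 11992 CPM in the same groups, with 4 to 6 of 10 at 0 in shiftwork libraries and 0 to 5 at 0 in controls. Only 1 to 4 of them were above 1 CPM in shiftwork libraries and 2 to 3 in controls. Smooth muscle markers (6) summed to 283 to 598 CPM and 371 to 10054 CPM, spermatid markers (10) to 2.04 to 5836 CPM and 1.22 to 41.4 CPM, and adipocyte markers (10) to 15118 to 50264 CPM and 24037 to 40838 CPM, each with shiftwork first. The part of these cells in the member values was not tested. With control replicates 1 and 3 and shiftwork replicate 3 left out (1 control and 2 shiftwork libraries then remain at ZT3; chosen once the data had been seen), the log2 fold changes were -0.54 for Atf4, -0.56 for Ddit3, -0.58 for Xbp1 and -0.56 for Hspa5, with edgeR adjusted p-values of 0.201, 0.355, 0.0924 and 0.225. In the same setting Trib3 was at 1.30 (edgeR adjusted p = 0.217), Herpud1 at 0.47, Pdia4 at 0.34, Hsp90b1 at 0.070, Dnajb9 at -0.17 and Calr at -0.18. The lone control is then assumed to vary like the other groups.

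**Figure D1:**
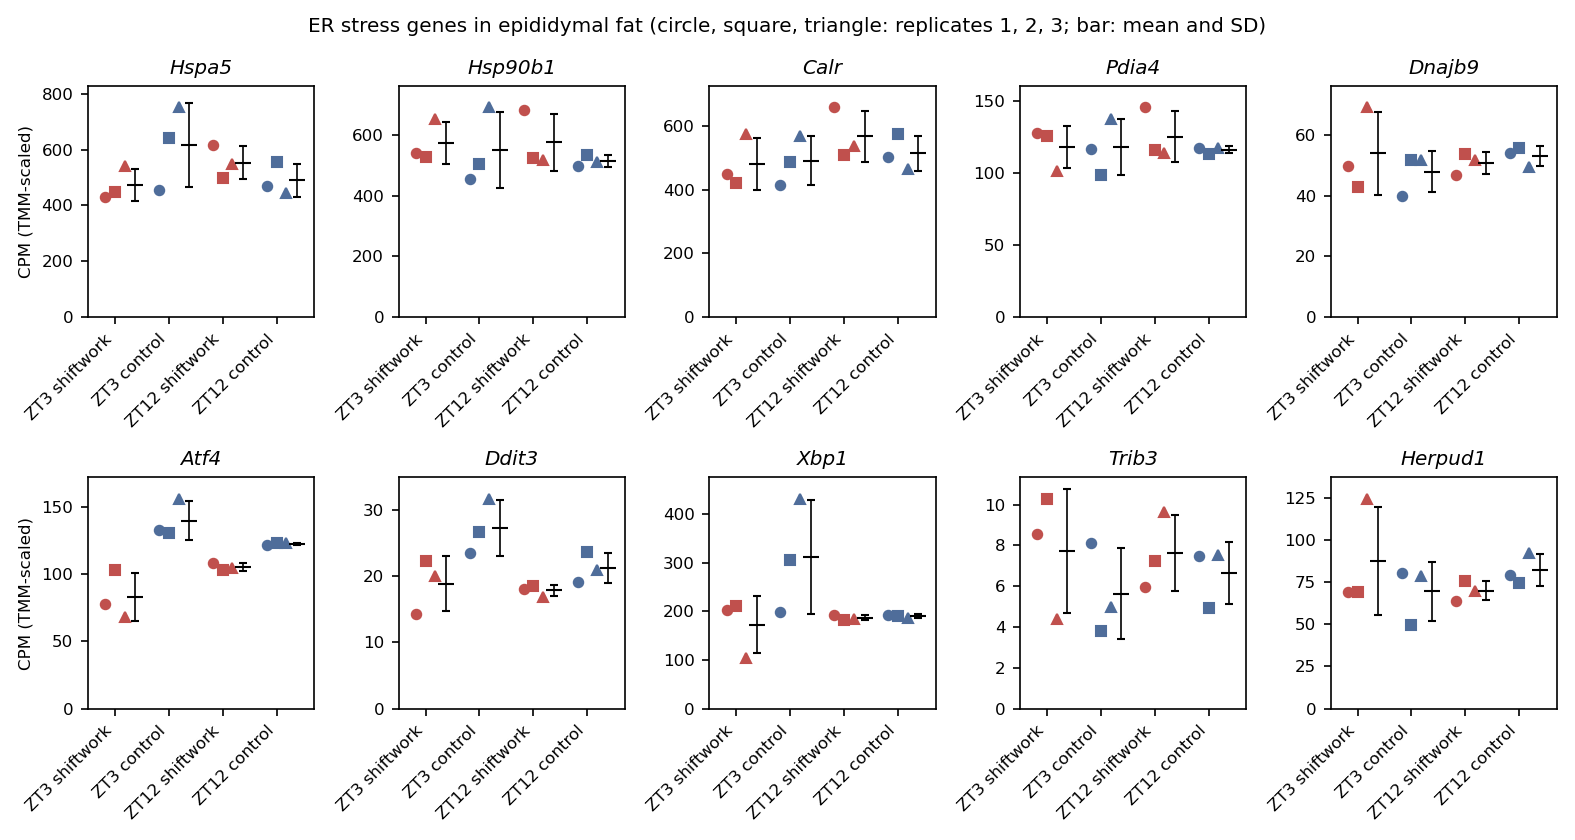
Levels of the 10 ER stress genes in the 12 eWAT libraries, in CPM with TMM-scaled library sizes on axes that start at 0, for shiftwork (red) and control (blue) libraries at ZT3 and ZT12; symbols are replicates and bars the mean and SD. At ZT3 the shiftwork libraries of Atf4 sit between 68.2 and 103 CPM, all below the controls, and the ZT12 groups are tighter.

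At ZT12, when lights go off in the regular cycle, Atf4 and Ddit3 were again lower in CPM in every shiftwork library than in any control, and no member passed the test. The edgeR test called 0% of 15141 genes, 355 genes (2.34%) had an unadjusted p under 0.05, and DESeq2 called 7 genes (0.0462%); no member was among any of these. Again 5 members had a positive log2 fold change, where 49% of all genes did. The log2 fold changes of the members ran from -0.25 to 0.20, with a median of 0.04 beside -0.00 over all genes tested, and each had an edgeR adjusted p of 1. Atf4 had 108, 103 and 104 CPM in shiftwork libraries, against 122, 123 and 123 CPM in controls. The groups did not overlap, with means of 105 ± 2.72 and 123 ± 0.72 CPM (SD, n = 3 each), and the log2 fold change was -0.22 ± 0.14 (interval -0.54 to 0.09). Ddit3 had 18.1, 18.6 and 16.9 CPM in shiftwork libraries, against 19.2, 23.7 and 20.98 CPM in controls, again lower in every library, at -0.25 ± 0.18. For Ddit3, shiftwork replicate 2 and control replicate 1 lay close together, and in FPKM both were at 16.1. Atf4 and Ddit3, 2 of 10 members, stand beside 6.55% of all genes that were lower without overlap in CPM and 5.91% that were higher.

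Xbp1 was nearly level at ZT12, with 193, 183 and 184 CPM in shiftwork libraries and 193, 192 and 186 CPM in controls, a log2 fold change of -0.03 with an interval of -0.68 to 0.63. That interval was wide because the fit shares its estimate of spread with ZT3, where Xbp1 varied more. Hspa5 had 615, 497 and 549 CPM in shiftwork libraries, against 469, 556 and 445 CPM in controls (0.18, interval -0.26 to 0.61). Shiftwork replicate 1 was the highest of the ZT12 libraries for Hspa5, Hsp90b1, Calr and Pdia4, with 615, 684, 659 and 146 CPM. That library also had the highest fibroblast and macrophage marker sums of the 12, 5766 and 3083 CPM, where the other ZT12 libraries had 3008 to 4640 and 1305 to 2341 CPM; their part in the chaperone values was not tested. Hsp90b1, Calr and Pdia4 had log2 fold changes of 0.16, 0.14 and 0.11, and Dnajb9, Trib3 and Herpud1 of -0.07, 0.20 and -0.23.

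Between the times of day in controls, Xbp1 had the largest estimated difference of the 10 members. There, edgeR called 559 genes (3.69%) at ZT12 against ZT3, and DESeq2 2168 genes (14.3%); no member was among them. With each library left out in turn the edgeR count ran from 1 (without ZT12 control replicate 1) to 2744 (without ZT3 shiftwork replicate 3). At an unadjusted p under 0.05 stood 22.4% of genes, 9.46% being lower at ZT12, and 1 member, Xbp1. Xbp1 had 193, 192 and 186 CPM at ZT12, against 198, 305 and 433 CPM at ZT3. The ZT12 libraries all lay below the ZT3 libraries, though replicate 1 at ZT3 was close to them, and the log2 fold change was -0.71 ± 0.30 (edgeR adjusted p = 0.188). Xbp1 passed the threshold without shiftwork replicate 3 of ZT3 (-0.73, edgeR adjusted p = 0.0414) and with the 3 ZT3 libraries left out (-0.72, adjusted p = 0.0114), where Herpud1 also passed, at 0.69 with an edgeR adjusted p of 0.0465. Without control replicate 3 of ZT3 the value for Xbp1 was -0.43 with an adjusted p of 0.548, and over all alternatives it lay between -0.96 and -0.43. Herpud1 had 79.2, 74.7 and 92.6 CPM at ZT12 in controls, against 80.5, 49.5 and 78.8 CPM at ZT3, and with all libraries its log2 fold change was 0.24 ± 0.25 (interval -0.32 to 0.80).

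Atf4 was also lower in CPM at ZT12 than at ZT3 in every control library, at -0.19 ± 0.14, and 13.6% of all genes were lower in the same way. In FPKM these Atf4 groups overlapped, with 51.3 in ZT3 replicate 2 against 51.3 to 52.3 at ZT12. Ddit3 had 19.2, 23.7 and 20.98 CPM at ZT12, against 23.5, 26.7 and 31.8 CPM at ZT3, and these just overlapped (-0.36 ± 0.18, edgeR adjusted p = 0.265). For Hspa5 the log2 fold change was -0.33 (interval -0.77 to 0.10), and for the other 4 chaperones between -0.10 and 0.15. Macrophage markers (10, none at 0) were higher at ZT12 in both schedules, with sums of 1305 to 2341 CPM at ZT12 against 737 to 941 CPM at ZT3 in controls, and of 1496 to 3083 CPM at ZT12 against 718 to 1193 CPM at ZT3 under shiftwork. In controls the B and plasma cell, skeletal muscle and vas deferens sums were lower at ZT12, at 29.1 to 33.9, 30.2 to 32.5 and 3.61 to 4.74 CPM, against 70.5 to 281, 58.05 to 261 and 15 to 11992 CPM at ZT3. Under shiftwork the fibroblast sum was 4089 to 5766 CPM at ZT12 against 2798 to 3665 CPM at ZT3. The part of these cells in the differences between times was not tested.

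Under shiftwork, Atf4 lay the other way between the times: 108, 103 and 104 CPM at ZT12, against 78.1, 103 and 68.2 CPM at ZT3. The libraries did not overlap, although the nearest were close together, and the log2 fold change was 0.34 ± 0.14 (edgeR adjusted p = 0.288). In this comparison edgeR called 0% of genes and DESeq2 288 (1.9%), 2461 genes (16.3%) had an unadjusted p under 0.05, 5.81% in the direction of higher at ZT12, and 9.05% of genes were higher at ZT12 without overlap. The remaining members had log2 fold changes from -0.33 for Herpud1 to 0.24 for Calr, with intervals that all included 0.

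The difference of the 2 schedules in their time effect was tested directly as an interaction, which called 0% of genes with edgeR and 187 (1.24%) with DESeq2, while 1535 genes (10.1%) had an unadjusted p under 0.05, 4.35% with a positive value. Atf4 gave 0.53 ± 0.20 (interval 0.08 to 0.97, edgeR adjusted p = 0.484), the 1 member with an unadjusted p under 0.05. Xbp1 gave 0.83 ± 0.42, Hspa5 0.56 ± 0.27 and Herpud1 -0.57 ± 0.36, with edgeR adjusted p-values of 0.513, 0.511 and 0.563. A positive value here means that the ZT12 level stood higher relative to ZT3 under shiftwork than in controls. These comparisons share libraries, so their estimates are not independent.

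**Figure D2:**
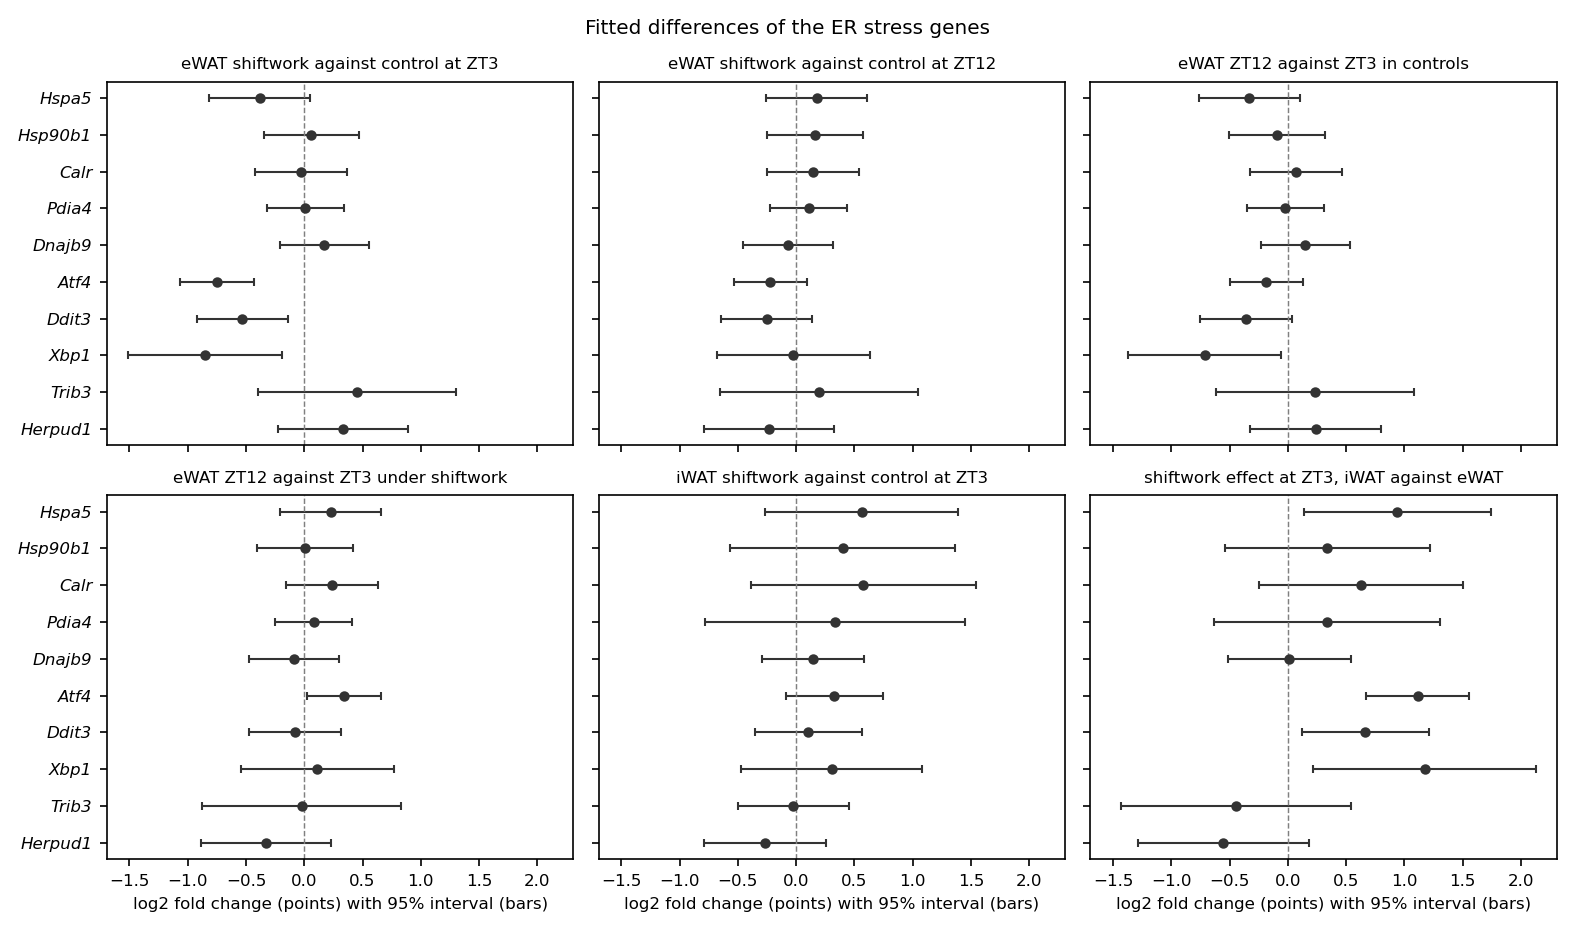
Fitted log2 fold changes of the 10 ER stress genes (points) with 95% intervals (bars) in 6 comparisons; the last is the difference of the shiftwork effects of the 2 depots. The intervals of Atf4, Ddit3 and Xbp1 lie below 0 at ZT3 in eWAT and above 0 in the depot difference, and none of the adjusted p-values is under 0.05.

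In iWAT at ZT3 the chaperone genes had higher means of normalized reads under shiftwork, but for Hspa5, Hsp90b1, Calr and Pdia4 a single library carried most of that. Dnajb9 had 1052, 1010 and 882 normalized reads in shiftwork replicates 1 to 3, against 1008, 728 and 944 in controls. In RPKM its means were 11.08 in shiftwork and 11.19 in control libraries. The limma test on log2(value + 1) called 0% of 16387 genes, and 1094 genes (6.68%) had an unadjusted p under 0.05, with no member among them; edgeR on recovered reads also called no member. Positive log2 fold changes were found in 8 members and negative in 2, with a median of 0.32 beside 0.02 over all genes, of which 51.8% were positive. Shiftwork replicate 3 was the highest of the 6 libraries in 6 of the 10 members, where it was the highest for 19.1% of all genes tested.

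Hspa5 had 15479, 14970 and 33308 normalized reads in shiftwork replicates 1 to 3 of iWAT, against 14781, 13904 and 11685 in controls. The groups did not overlap, yet shiftwork replicates 1 and 2 lay close to the highest control, and the log2 fold change of 0.56 ± 0.35 (limma adjusted p = 0.692) became 0.18 without replicate 3. Calr had 19168, 16479 and 44013 normalized reads in shiftwork libraries, against 15811, 19432 and 13604 in controls (0.58 ± 0.40, limma adjusted p = 0.702). Hsp90b1 had 9791, 12414 and 27871 in shiftwork libraries, against 12814, 10175 and 11339 in controls (0.40 ± 0.40). Shiftwork replicates 1 and 2 lay among the controls for Calr, and for Hsp90b1 replicate 1 was the lowest of the 6 libraries.

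Pdia4 had 3378, 3237 and 10346 normalized reads in shiftwork libraries, against 3712, 4497 and 3384 in controls, so that 2 shiftwork libraries lay below all controls and the third well above them. Without replicate 3 the log2 fold change of Pdia4 was -0.21, against 0.33 with it, and those of Hsp90b1 and Xbp1 were -0.05 each. Xbp1 had 6023, 5915 and 12628 normalized reads in shiftwork libraries, against 5968, 5746 and 6928 in controls (0.31 ± 0.32). Shiftwork replicate 3 also had the highest sums of fibroblast markers (8, none at 0), with 827596 normalized reads where the other shiftwork libraries had 217829 and 314179 and the controls 146377 to 394170. Its macrophage markers (10, none at 0) summed to 121254, against 37002 and 77111 in the other shiftwork libraries and 49737 to 65371 in controls. Smooth muscle markers (6) summed to 15886 to 55114 in shiftwork libraries against 6699 to 13712 in controls, and skeletal muscle markers (10) to 6242 to 2122810 against 2399 to 4607, both without overlap and with none at 0. The smooth muscle sum of 55114 stood in shiftwork replicate 1, the library highest in skeletal muscle markers, and Des alone gave 45993 of it. Acta2 led that sum in the other iWAT libraries. The part of these cells in the member values was not tested.

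Atf4 had 4496, 4127 and 4742 normalized reads in shiftwork libraries, against 3745, 4010 and 2956 in controls. All 3 shiftwork libraries lay above all 3 controls, with a log2 fold change of 0.33 ± 0.17 (interval -0.08 to 0.74, limma adjusted p = 0.688), and the value was 0.28 without shiftwork replicate 3, 0.20 without control replicate 3 and 0.18 on log2(RPKM + 0.1). Together with Hspa5 it made 2 of 10 members that were higher without overlap in normalized reads, beside 7.34% of all genes. In RPKM both genes overlapped. Atf4 had 69.8, 72.9 and 80.6 RPKM in shiftwork libraries, against 75.5, 76.5 and 48.4 RPKM in controls. Hspa5 had 98.0, 107.7 and 230.6 RPKM in shiftwork libraries, against 121.5, 108.1 and 77.9 RPKM in controls. Ddit3, Dnajb9 and Trib3 had log2 fold changes of 0.10 (-0.36 to 0.56), 0.15 (-0.29 to 0.58) and -0.03 (-0.50 to 0.45). Herpud1 had 3582, 2492 and 2662 normalized reads in shiftwork libraries, against 3511, 4142 and 2842 in controls (-0.27 ± 0.22). The authors' deposited table of the same comparison gave adjusted p-values of 0.800 for Hspa5, 0.843 for Calr, 0.887 for Atf4 and 0.992 for the other 7, with 426 of 29819 genes (1.43%) under 0.05.

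**Figure D3:**
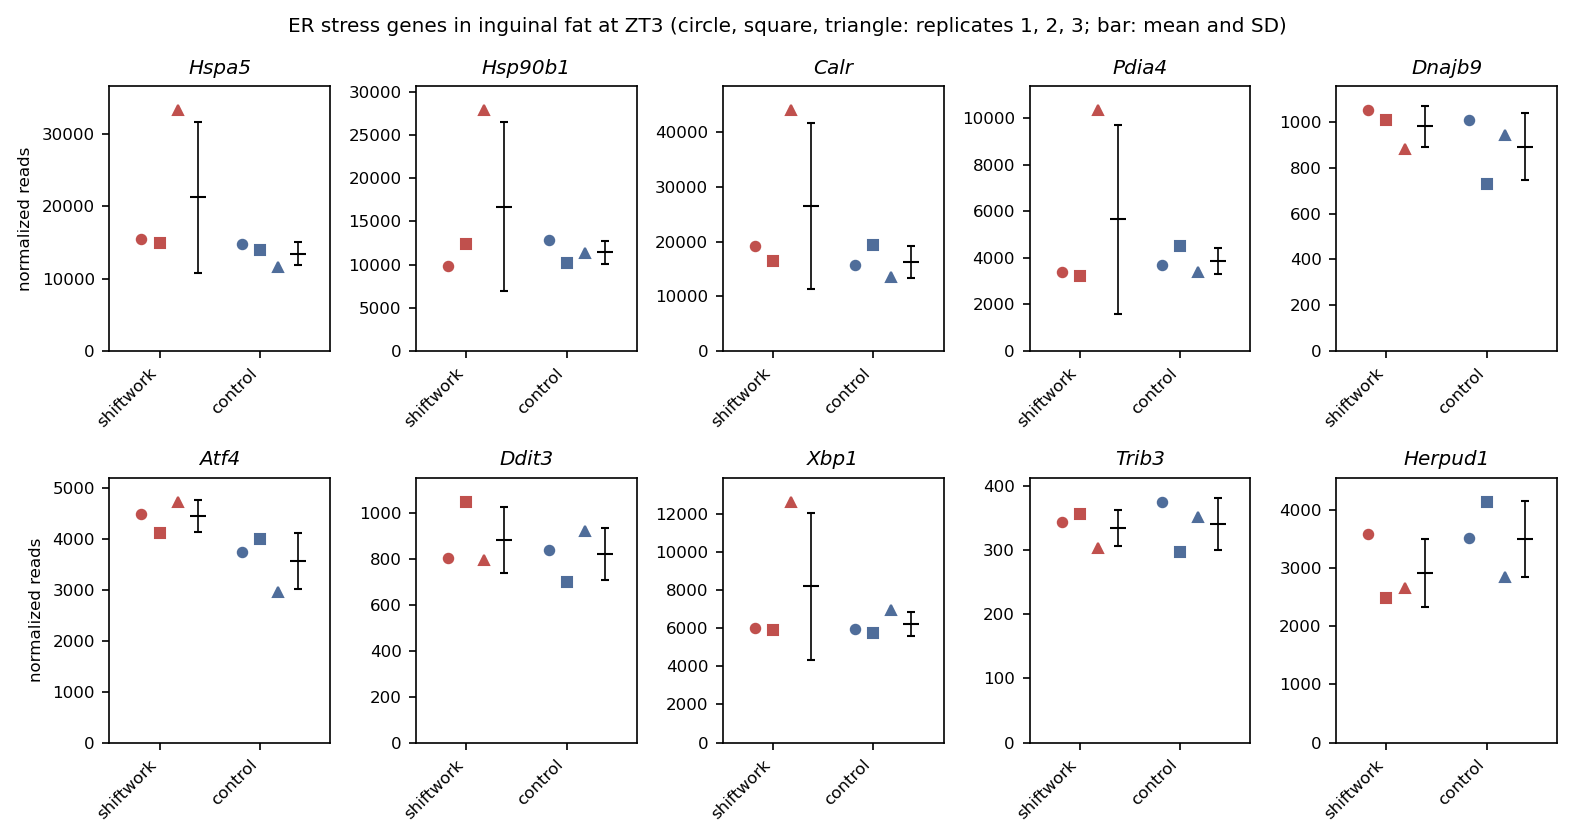
Levels of the 10 ER stress genes in the 6 iWAT libraries at ZT3, in the authors' normalized reads on axes that start at 0, for shiftwork (red) and control (blue) libraries; symbols are replicates and bars the mean and SD. Replicate 3 of shiftwork (triangle) stands far above the rest for Hspa5, Hsp90b1, Calr, Pdia4 and Xbp1. For Atf4 all shiftwork libraries lie above the controls in normalized reads, but not in RPKM.

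The shiftwork effects at ZT3 in the 2 depots were compared in a limma fit of all 18 libraries, which called 2 of 15748 genes (0.0127%), with 1781 genes (11.3%) at an unadjusted p under 0.05, 6.53% with a positive difference. No member passed, and 4 members had an unadjusted p under 0.05, all with a positive difference. Atf4 ranked 13 among all genes by its p: its shiftwork effect was 1.11 ± 0.21 higher on the log2 scale in iWAT than in eWAT (interval 0.67 to 1.55, limma adjusted p = 0.0949). Without control replicate 2 of eWAT at ZT3 the limma adjusted p was 0.0216, and without control replicate 3 of iWAT it was 0.0157, and over all alternatives it lay between 0.0157 and 0.315. Xbp1 gave 1.17 ± 0.45, Hspa5 0.94 ± 0.37 and Ddit3 0.67 ± 0.26, with limma adjusted p-values of 0.365, 0.380 and 0.367. The other differences were 0.62 for Calr, 0.34 for Hsp90b1 and Pdia4, 0.01 for Dnajb9, -0.45 for Trib3 and -0.56 for Herpud1, each with an interval that included 0. Without shiftwork replicate 3 of iWAT the values for Hspa5 and Xbp1 were 0.56 and 0.81.

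Around the members, 5 lists of other genes of the response were counted: 14 sensors and activators, 24 further ER chaperones and folding enzymes, 20 genes of ER-associated degradation, 25 or 26 of translocation and secretion, and 31 targets of ATF4 and CHOP. Over all lists and comparisons a single call was made at an adjusted p under 0.05. Chac1, an ATF4 target that degrades glutathione, rose in controls at ZT12, with 7.65, 6.10 and 8.65 CPM at ZT12 against 2.68, 2.24 and 2.34 CPM at ZT3 (log2 fold change 1.62 ± 0.31, edgeR adjusted p = 0.0277). Over the alternatives its fold change lay between 1.48 and 1.75 and its adjusted p between 6.63e-05 and 0.151; the call was lost in 8 of 12 fits with 1 library left out, among them those without any one of the ZT12 controls, with the replicate block (adjusted p = 0.0576) and with the 3 ZT3 libraries left out (adjusted p = 0.0902). That is 1 of 31 targets, beside 3.69% of all genes. The tryptophanyl-tRNA synthetase gene Wars had -1.69 ± 0.42 in that comparison (edgeR adjusted p = 0.0534), from 79.0, 75.8 and 70.8 CPM at ZT12 and 323, 81.6 and 323 CPM at ZT3; its high values stood in control replicates 1 and 3, the libraries with vas deferens markers, whose part in it was not tested. The pro-apoptotic gene Bbc3 followed with -1.07 ± 0.29 (edgeR adjusted p = 0.0694). For folding enzymes the smallest p-values belonged to Fkbp7 (0.54), Pdia5 (0.66) and Erp29 (0.32), for degradation to Sel1l (0.36), Man1b1 (0.22) and Os9 (0.33), for secretion to Sec24d (0.56), Srprb (-0.33) and Sec23b (-0.36), and for sensors to Eif2ak2 (0.40), Ppp1r15b (-0.37) and Eif2ak4 (0.24), all log2 fold changes with an edgeR adjusted p between 0.0685 and 0.215.

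At ZT3 in eWAT under shiftwork, 20 of 31 ATF4 and CHOP targets had negative estimates (median -0.21), as did 20 of 25 translocation genes (median -0.13), 15 of 24 folding genes (median -0.13), 11 of 14 sensors (median -0.11) and 9 of 20 degradation genes (median 0.03), beside a median of 0.06 over all genes. None was called. The member with the smallest p in each list was Wars (-1.88 ± 0.42), Srprb, the beta subunit of the signal recognition particle receptor (-0.25 ± 0.10), Uggt1, which senses glycoprotein folding (-0.38 ± 0.14), Ppp1r15b, an eIF2 alpha phosphatase subunit (-0.52 ± 0.15), and Edem2 (-0.42 ± 0.13), with edgeR adjusted p-values from 0.189 to 0.219. With the 3 ZT3 libraries left out, the medians were -0.13, -0.09, -0.03, -0.07 and -0.02 in the same order of lists, and Uggt1 was at 0.016. Wars had 69.7, 78.5 and 50.3 CPM in shiftwork libraries at ZT3, against 323, 81.6 and 323 CPM in controls. Its high values stood in control replicates 1 and 3, the libraries with vas deferens markers, whose part in it was not tested. The fold change of Wars lay between -2.31 and -0.15 over the alternatives. At ZT12 the folding list had 20 of 24 positive estimates (median 0.07) and the secretion list 20 of 25 (median 0.06), and the member with the smallest p was Ppib (0.26 ± 0.12) and Kdelr3 (0.58 ± 0.29), both with an edgeR adjusted p of 1. Slc3a2, the heavy chain of an amino acid transporter, led the ATF4 targets at ZT12 with -0.34 ± 0.13, Eif2ak2 the sensors with -0.27 and Selenos the degradation list with 0.09. Between ZT12 and ZT3 under shiftwork the leading members were Ppib (0.32), Sec24d (0.49), Derl3 (-2.40), Eif2ak4 (0.21) and Cebpb (0.77), with edgeR adjusted p-values from 0.280 to 0.352, and for the interaction Ppib (0.45), Kdelr3 (1.15), Edem2 (0.38), Ppp1r15a (0.55) and Wars (1.82), from 0.448 to 0.502. Derl3 had 8.97 CPM in shiftwork replicate 3 at ZT3 and under 1 CPM in the other 5 libraries of the comparison of times under shiftwork, and without that replicate its fold change was 0.31. The interaction value of Wars lay between 0.10 and 2.26 over the alternatives.

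In iWAT, 22 of 24 folding genes had positive estimates (median 0.28), and shiftwork replicate 3 was the highest library for 21 of them. Without it the count was 16 of 24 and the median 0.04. Secretion genes gave 23 of 26 (median 0.23) with it and 17 of 26 (median 0.07) without it, degradation genes 17 of 20 (0.13) and 15 of 20 (0.13), ATF4 and CHOP targets 22 of 31 (0.18) and 21 of 31 (0.15), and sensors 7 of 14 (0.01) and 4 of 14 (-0.09). No gene of these lists was called. Calu, a calcium-binding ER protein, had 14744, 13327 and 18922 normalized reads in shiftwork libraries, against 8461, 9148 and 10193 in controls (0.75 ± 0.20, limma adjusted p = 0.688). Sec24d, a coat protein of ER export vesicles, had 4306, 4228 and 5025 in shiftwork libraries, against 3164, 2695 and 2759 in controls (0.65 ± 0.15, limma adjusted p = 0.688). In normalized reads both genes were higher in every shiftwork library than in any control, as were 7.34% of all genes. They were picked by the smallest p of their lists, which favours such a separation. Their separation in RPKM was not examined. The stress factor Atf3 led the ATF4 targets with 1.63 ± 0.49, Syvn1 the degradation list with -0.41 ± 0.16 and Nfe2l2 the sensors with 0.28 ± 0.19.

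In the comparison of depots, 23 of 24 folding genes, 23 of 25 secretion genes, 25 of 31 ATF4 and CHOP targets, 15 of 20 degradation genes and 11 of 14 sensors had a more positive shiftwork effect in iWAT than in eWAT, with medians of 0.35, 0.37, 0.35, 0.14 and 0.15, where 50% of all genes did. None was called. Without shiftwork replicate 3 of iWAT the counts in the same order were 16 of 24, 23 of 25, 23 of 31, 14 of 20 and 8 of 14, with medians of 0.16, 0.23, 0.40, 0.16 and 0.11. Of the 10 members, 8 had a more positive effect in iWAT (median 0.48), and 6 did without that library (median 0.14). The smallest p-values were those of Slc3a2 (0.76), Cebpb (1.59), Wars (1.90), Srprb (0.64), Sec24d (0.74), Lman1 (0.82), Calu (0.92), P4hb (0.75), Erp44 (0.52), Atf6 (0.34), Ppp1r15b (0.52), Nfe2l2 (0.44), Ube2g2 (0.48) and Edem2 (0.43), with limma adjusted p-values from 0.188 to 0.482.

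**Figure D4:**
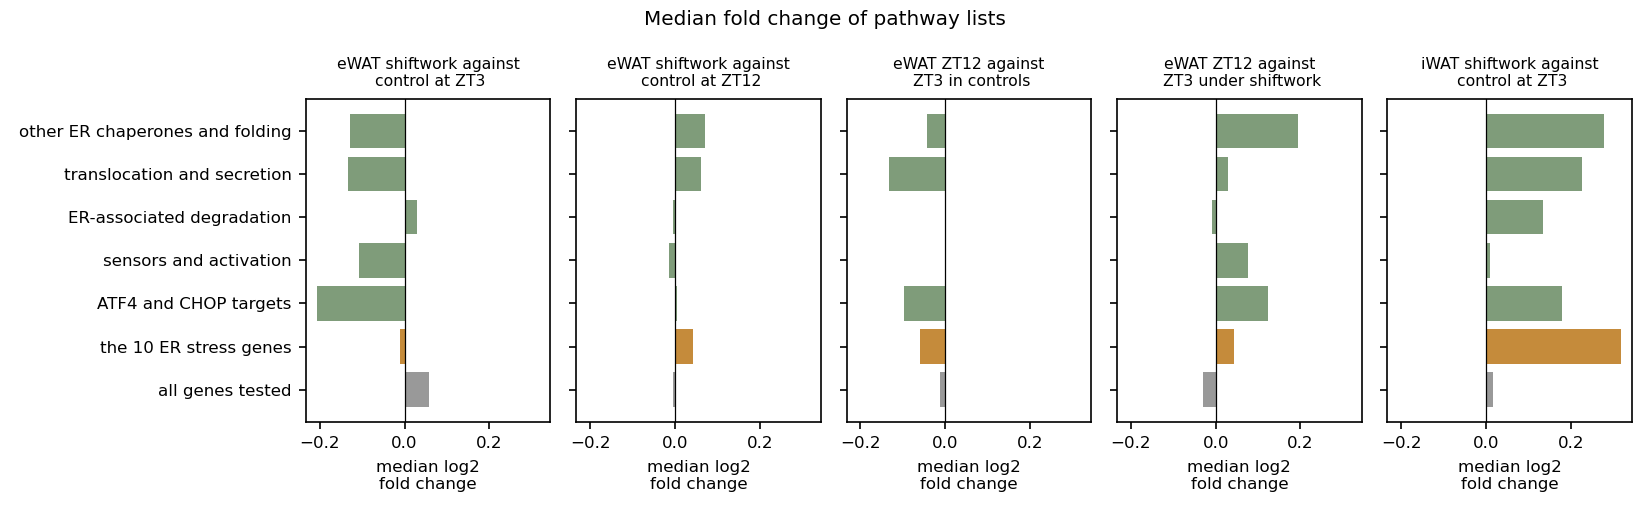
Median log2 fold change of the 5 pathway lists (green), the 10 ER stress genes (orange) and all genes tested (grey) in 5 comparisons, with bars from 0. In iWAT the members had a median of 0.32 and the folding list 0.28, values that were 0.09 and 0.04 without shiftwork replicate 3.

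Among 10611 eWAT genes with an average log2 CPM of at least 3, those most like Hspa5 over the 12 eWAT libraries, by Pearson's r of log2(CPM + 1), were Ggct (0.93), Sdc4 (0.91), Fastkd3 (0.90), Mapk6 (0.87) and Aldh1a3 (0.87). Without the 2 libraries farthest from the median, r was 0.75 to 0.86 for these 5, and Spearman's rho over all 12 was 0.80 to 0.92. Over the 6 iWAT libraries their r with Hspa5 was 0.64, 0.76, -0.13, 0.73 and 0.40. Without shiftwork replicate 3 of iWAT these values were 0.69, 0.14, 0.54, 0.06 and -0.18. The genes most like Atf4 were Usp10 (0.95), Phf23 (0.92), Preb (0.91), Gmppb (0.91) and Zfp146 (0.91). Their r in iWAT was 0.78, 0.63, 0.40, 0.93 and -0.12, and without shiftwork replicate 3 it was 0.80, 0.41, -0.24, 0.95 and -0.33. In eWAT their r without the 2 farthest libraries was 0.76 to 0.85 and rho 0.78 to 0.87. Among the members themselves, Hspa5 had r = 0.69 with Calr and 0.64 with Hsp90b1 in eWAT, and 0.97 and 0.92 in iWAT, where without shiftwork replicate 3 the values were 0.70 and -0.02. Atf4 had r = 0.76 with Xbp1 and 0.71 with Ddit3 in eWAT, and 0.35 and -0.31 in iWAT, where without shiftwork replicate 3 the values were -0.85 and -0.23. Trib3 had r = -0.70 with Hspa5 in eWAT, Pdia4 0.11 and Dnajb9 0.28. Spearman's rho with Hspa5 in eWAT was 0.71 for Calr, 0.35 for Hsp90b1, -0.20 for Pdia4, 0.38 for Dnajb9 and -0.70 for Trib3. Spearman's rho with Atf4 in eWAT was 0.48 for Xbp1 and 0.72 for Ddit3. These values describe libraries that share groups, scaling and cell makeup, and they carry no test.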

How the data were processed

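RNA was sequenced as single reads of 51 cycles after Trizol extraction and mRNA library preparation, per the labels' protocols. Tools in the submitters' processing notes are edgeR, limma, DESeq2, HTSeq and STAR, and builds GRCm38 and mm10, without roles; the strand of counting is not given in the sources used here, so antisense and overlapping genes cannot be told apart. For eWAT the authors deposited counts per gene and log2 FPKM (used for levels per length; its offset of about 0.1 was kept). The iWAT table that the authors deposited as read counts holds normalized signal: each value is a whole read number divided by a factor per library, and whole reads were recovered for 100% of 310956 values (tolerance 1e-06). RPKM for iWAT, and the authors' own fold changes and p-values, were also deposited.

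The 4 eWAT groups (12 libraries of counts) entered a single edgeR 4.0.16 fit under R 4.3.3 (quasi-likelihood, robust, TMM, filterByExpr with minimum count 10 and minimum total 15). The edgeR test planned for iWAT was replaced by limma 3.58.1 (trend, robust) on log2(value + 1), for genes of at least 10 in at least 3 libraries, because the values are not counts; edgeR on recovered reads was an alternative. The depot difference used limma on 18 libraries over 23410 shared symbols before filtering. Calls used a Benjamini-Hochberg adjusted p under 0.05 over all genes tested. SE of edgeR folds is the fold over the square root of F, and intervals are at 95%. Fold changes on log2(value + 1) understate changes of low genes.

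DESeq2 1.42.0 was an alternative, with RLE factors, no filter, other pseudocounts, only the groups compared, a replicate block and each library left out. Scripts were tested on simulated data. Members, lists, markers and tests were chosen with earlier results of these data known. Named genes were all 10 members, the 3 pathway genes per list with the smallest p in comparisons with a call and 1 in the others, and the 5 genes most like Hspa5 and Atf4; 1 pathway gene that this rule names is not reported here. No 2 libraries of a group agreed within sampling noise (smallest chi-square per gene 19.2). The floor of 3 reads covers counting error only; the intervals of fold changes come from the spread between libraries. Promoters came from RefSeq, GRCm38.p6.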

Additional observations from a re-analysis of the deposited data

How the results depend on the processing

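Over alternatives other than leaving out a single library, 352 of 370 member values kept their direction and side of the threshold, 15 reversed and 3 newly passed it. Over 840 values with one library left out, 780 did so, 56 reversed and 4 newly passed. With DESeq2, 629 genes and 1 member (Atf4) were called at ZT3, 7 genes at ZT12, 2168 for time in controls, 288 for time under shiftwork and 187 for the interaction. Without a filter on low values, 320 genes were called for time in controls and 1 for the depot difference. With the 3 ZT3 libraries left out, chosen after seeing the data, 9 genes were called at ZT3, 75 for time under shiftwork, 7 for the interaction, and 2 members (Xbp1 and Herpud1) for time in controls. The cause was not tested.

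In single settings, Pdia4 at ZT3 was -0.00383 with RLE factors, -0.00581 without a filter and -0.00393 with DESeq2, Hsp90b1 for time under shiftwork was -0.019 with RLE factors, -0.019 with DESeq2 and -0.013 with only the 2 groups compared in the fit, and Ddit3 in iWAT was -0.0411 on log2(RPKM + 0.1). With the 3 ZT3 libraries left out, Dnajb9 was -0.17 at ZT3, -0.00397 for time in controls, 0.11 for time under shiftwork and 0.11 for the interaction, Pdia4 was 0.19, -0.038 and -0.23 in the last 3 of these, and Xbp1 was -0.17 and the pathway gene Derl3 0.30 for time under shiftwork, and Uggt1 0.0159 at ZT3. Of 275 values of the pathway genes named, 255 kept direction and side, 2 reversed, 16 newly passed and 2 no longer passed; with one library left out these were 691, 1, 20 and 8 of 720.

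Replicate numbers did not pair libraries within a depot (correlations of same-numbered libraries eWAT -0.44 to 0.31, iWAT -0.18 to 0.014). Pairing across depots by the numbers in the sample names was not examined, and the main depot fit treated all libraries as independent. With the replicate number as a block, 298 genes were called for time in controls and 1 for the depot difference, and no member was called in any comparison.

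Leaving out 1 library at a time gave these ranges of calls and of the log2 values that reversed. For shiftwork against control at ZT3 in eWAT, 0 to 403 genes and 0 to 1 members were called, with Hsp90b1 -0.0634 to 0.25, Pdia4 -0.12 to 0.12, Calr -0.17 to 0.0815, Dnajb9 -0.0501 to 0.31, Herpud1 -0.0161 to 0.48. For shiftwork against control at ZT12, 0 genes and 0 members were called, with Pdia4 -0.0133 to 0.18, Trib3 -0.00465 to 0.34. For ZT12 against ZT3 in controls, 1 to 2744 genes and 0 to 1 members were called, with Hsp90b1 -0.22 to 0.0721, Pdia4 -0.15 to 0.0743, Calr -0.0378 to 0.16, Trib3 -0.0076 to 0.60. For ZT12 against ZT3 under shiftwork, 0 genes and 0 members were called, with Hsp90b1 -0.14 to 0.0971, Ddit3 -0.27 to 0.0456, Xbp1 -0.16 to 0.27, Pdia4 -0.0395 to 0.13, Dnajb9 -0.24 to 0.12, Trib3 -0.32 to 0.23, Herpud1 -0.49 to 0.00561, Derl3 -2.95 to 0.31. For the interaction, 0 to 186 genes and 0 members were called, with Hsp90b1 -0.0808 to 0.22, Pdia4 -0.0224 to 0.23, Trib3 -0.62 to 0.0181. For iWAT, 0 to 360 genes and 0 members were called, with Hsp90b1 -0.0473 to 0.71, Ddit3 -0.0269 to 0.19, Xbp1 -0.0533 to 0.49, Pdia4 -0.21 to 0.62, Trib3 -0.12 to 0.0469. For the depot difference, 0 to 492 genes and 0 to 1 members were called, with Hsp90b1 -0.11 to 0.65, Pdia4 -0.21 to 0.63, Dnajb9 -0.14 to 0.21. The highest counts came without ZT3 control replicate 2 (403 at ZT3, 186 for the interaction), ZT3 shiftwork replicate 3 (2744) and iWAT control replicate 3 (360 and 492), and the lowest for time in controls without ZT12 control replicate 1. A group of 2 or 3 libraries limits precision. At this depth 3 reads correspond to at most 0.146 CPM in eWAT, far below every member.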
